A study of Mus musculus with 12 samples.

Results

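Serpins are described here that either block granzymes, the proteases of cytotoxic granules, or belong to the Serpina3 family tied to STAT3 signaling. They are 8 genes chosen by name, Serpinb9, Serpinb9b, Serpinb6a, Serpinb6b, Serpinb1a, Serpina3f, Serpina3g and Serpina3n, out of 61 serpin genes and 54232 gene rows in the count table. RNA was sequenced from 12 libraries of B16F10, a mouse melanoma cell line of C57BL/6 origin, in 4 groups of 3 libraries. WT were cultured cells without treatment. Relapsed were 3 separate lines, ITF1, Rel and ITM, each sorted from a tumor that came back after immunotherapy and then grown in culture, so that each line has 1 library. Lyso were cultured B16F10 cells given lysosomal granules derived from T cells, for 48 h by the labels and for a shorter time by the study's methods. Tumor (replicates 1, 3 and 4) were B16F10 cells injected under the skin of mice aged 6 weeks, sorted after relapse and lysed for RNA at once, without culture. In the study's model, relapse followed treatment of the mice with anti-CD40, TNFα and an antibody against TRP1. Nothing in the labels says that the 3 libraries of WT or of Lyso came from separate cultures, so p-values measure the spread between these libraries, which may be technical. The question was how the levels of these serpins differed between cells before treatment, cells exposed to T cell granules, cells inside relapsed tumors and lines regrown from them.

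A serpin carries an exposed loop that a protease cuts as if it were a substrate. The cut loop snaps into the body of the serpin and drags the protease along, so that both are locked together and lost. Cytotoxic T cells and NK cells kill by releasing perforin and granzymes, and the intracellular clade B serpins protect both the killers and some of their targets from granzymes that reach the cytosol. Serpinb9 is the mouse inhibitor of granzyme B, its relative Serpinb9b inhibits granzyme M, and Serpinb6b has been described as an inhibitor of granzyme A. Serpinb6a blocks cathepsin G and related proteases, and Serpinb1a blocks the neutrophil proteases elastase, cathepsin G and proteinase 3. The mouse Serpina3 genes expanded from the gene that corresponds to human antichymotrypsin. Serpina3g is an intracellular member that inhibits cathepsins, and Serpina3n is a secreted acute-phase protein that can inhibit granzyme B and is a familiar target of STAT3.

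The libraries held between 1667398 and 16402629 counts on genes. At most 5049496 counts came from WT 1, WT 2 or any Tumor library, whereas WT 3, the relapsed lines and Lyso were deep (at least 10895611), so depth and group are partly confounded. A count of 3, used as the floor of detection, stood for 1.8 CPM (counts scaled to the size of the library) in WT 1 and for 0.183 CPM in WT 3 and ITM. Levels are given as CPM after TMM scaling, which corrects for library composition, and floors and intervals of counts cover counting error only. All 10 melanocyte markers, among them Dct, Tyr and Pmel, were detected in each group, with sums of 19810 to 28448 CPM in WT and 20546 to 22660 CPM in Tumor. In Tumor, 10 fibroblast markers summed to between 7707 and 10709 CPM, against 30 to 39.5 CPM in WT, and all 10 were called higher, so the sorted material held RNA of genes that melanoma cells in culture barely expressed. For such bulk samples, fewer cells of a type and less RNA per cell cannot be told apart.

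The genes lie in 2 clusters of GRCm38. Serpinb1a (chromosome 13, 32842092 to 32851185, minus strand), Serpinb6b (32965209 to 32979067, plus strand), Serpinb9 (33003250 to 33017957, plus strand), Serpinb9b (33027416 to 33041884, plus strand) and Serpinb6a (33917918 to 34002794, minus strand) sit together on chromosome 13. Serpina3f (104214544 to 104221129), Serpina3g (104236245 to 104241939) and Serpina3n (104406729 to 104414329) follow each other on the plus strand of chromosome 12. All 8 are protein coding. RefSeq promoter windows, from 250 bases before to 50 bases after the annotated start, were matched by symbol for 7 of the 8 genes. The windows of Serpinb9 and the 3 Serpina3 genes are shown, which include the 3 members called higher in Lyso than in WT, so that the 3 Serpina3 neighbors can be compared with each other and with Serpinb9. They come from GRCm38.p6, all on the plus strand, at chr13:33004291-33004590 for Serpinb9, chr12:104214294-104214593 for Serpina3f, chr12:104235897-104236196 for Serpina3g and chr12:104406458-104406757 for Serpina3n. Capitals mark matches to any of 3 motifs searched on both strands, which are TTCNNNGAA, the palindrome that STAT dimers bind, GAAANNGAAA, the core of an interferon-stimulated response element, and the NF-kappaB consensus of 10 letters.
Serpinb9: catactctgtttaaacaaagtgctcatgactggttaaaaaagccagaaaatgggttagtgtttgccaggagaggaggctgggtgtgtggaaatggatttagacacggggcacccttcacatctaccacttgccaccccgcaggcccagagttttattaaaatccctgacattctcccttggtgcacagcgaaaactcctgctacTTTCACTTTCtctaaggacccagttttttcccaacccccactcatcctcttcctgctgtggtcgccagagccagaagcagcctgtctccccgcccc
Serpina3f: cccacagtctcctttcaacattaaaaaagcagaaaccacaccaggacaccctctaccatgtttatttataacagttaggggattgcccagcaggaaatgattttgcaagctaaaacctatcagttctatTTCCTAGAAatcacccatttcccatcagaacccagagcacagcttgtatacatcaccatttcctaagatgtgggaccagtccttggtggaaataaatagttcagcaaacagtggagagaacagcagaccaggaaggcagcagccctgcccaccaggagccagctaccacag
Serpina3g: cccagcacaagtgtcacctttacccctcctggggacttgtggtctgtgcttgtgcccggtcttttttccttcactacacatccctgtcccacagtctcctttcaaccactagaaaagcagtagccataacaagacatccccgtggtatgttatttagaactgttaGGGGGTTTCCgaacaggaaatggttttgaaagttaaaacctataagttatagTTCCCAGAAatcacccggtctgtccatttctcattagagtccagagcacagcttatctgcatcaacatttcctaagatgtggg
Serpina3n: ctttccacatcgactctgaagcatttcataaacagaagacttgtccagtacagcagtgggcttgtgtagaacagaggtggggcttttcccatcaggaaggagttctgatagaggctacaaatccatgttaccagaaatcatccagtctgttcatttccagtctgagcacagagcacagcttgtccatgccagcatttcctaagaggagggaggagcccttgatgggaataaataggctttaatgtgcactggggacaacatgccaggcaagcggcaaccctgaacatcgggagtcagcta

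The STAT palindrome was present in the windows of Serpina3f, at 121 to 113 bases before the start, and of Serpina3g, at 33 to 25 bases before it. Among all 32851 RefSeq promoter windows of this length, 8.3% held it. The Serpina3g window also held an NF-kappaB consensus, 85 to 76 bases before the start, as did 8.46% of all windows. Serpina3n held none of the 3 motifs. Its window could be aligned with those of its neighbors, with 65.8% identity to Serpina3f over 313 alignment columns and 67.8% to Serpina3g over 227, while Serpina3f and Serpina3g had 79% identity over 214. The bases of Serpina3n aligned with the palindrome lay 123 to 115 bases before its start and differed from the palindrome of Serpina3g by C3A, and from that of Serpina3f by C3A and T5C (positions counted from 1 at the first base of the palindrome, with the base of Serpina3g or Serpina3f first). C3A falls in the fixed letters TTC. Serpinb9 held a match to the interferon-response core, 46 to 37 bases before the start on the minus strand, present in 3.44% of all windows. Serpinb6a, not shown, held 2 STAT palindromes and 1 interferon-response core in 1 of its 2 windows. Serpinb9b and Serpinb6b held no match. A match is a description of letters and not a sign of binding.

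Across the 6 comparisons, serpins of both families were higher in Lyso or in Tumor than in WT. Serpina3f and Serpina3g were called in both, Serpinb9 in Lyso, and Serpina3n, Serpinb1a and Serpinb6b in Tumor. To be called, a gene needed a change of more than 1 on the log2 scale and a p below 0.05 after adjustment in edgeR's quasi-likelihood test, over the 14924 genes tested. In Lyso against WT, Serpinb9, Serpina3f and Serpina3g were called higher and 0 of 8 lower, while 2.43% of all genes tested were called higher and 0.576% lower. In Tumor against WT, Serpina3n, Serpina3g, Serpina3f, Serpinb1a and Serpinb6b were called higher and 0 of 8 lower, against 8.56% and 2.2% of all genes. In Relapsed against WT, 0 of 8 were called by edgeR, 0 by DESeq2, and 0 had an unadjusted p under 0.05, where 1636 of all genes tested did. The background there was 0.0134% higher and 0.0268% lower. Lyso exceeded the relapsed lines for 3 members (background 3.21% higher and 1.04% lower), namely Serpinb9, Serpina3f and Serpina3g. Tumor exceeded the relapsed lines for 4 members (background 8.36% and 2.31%), which were Serpinb1a, Serpina3f, Serpina3g and Serpina3n. Compared directly, Tumor was higher than Lyso for Serpinb1a, Serpinb6b, Serpina3g and Serpina3n and lower for Serpinb9 (background 8.78% higher and 4.14% lower). All 8 passed the filter on low counts, but Serpinb1a, Serpina3f, Serpina3g and Serpina3n did so only through Lyso or Tumor, where they are high, so the counts above are a description. Comparisons that share WT or Lyso share those libraries.

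**Figure D1:**
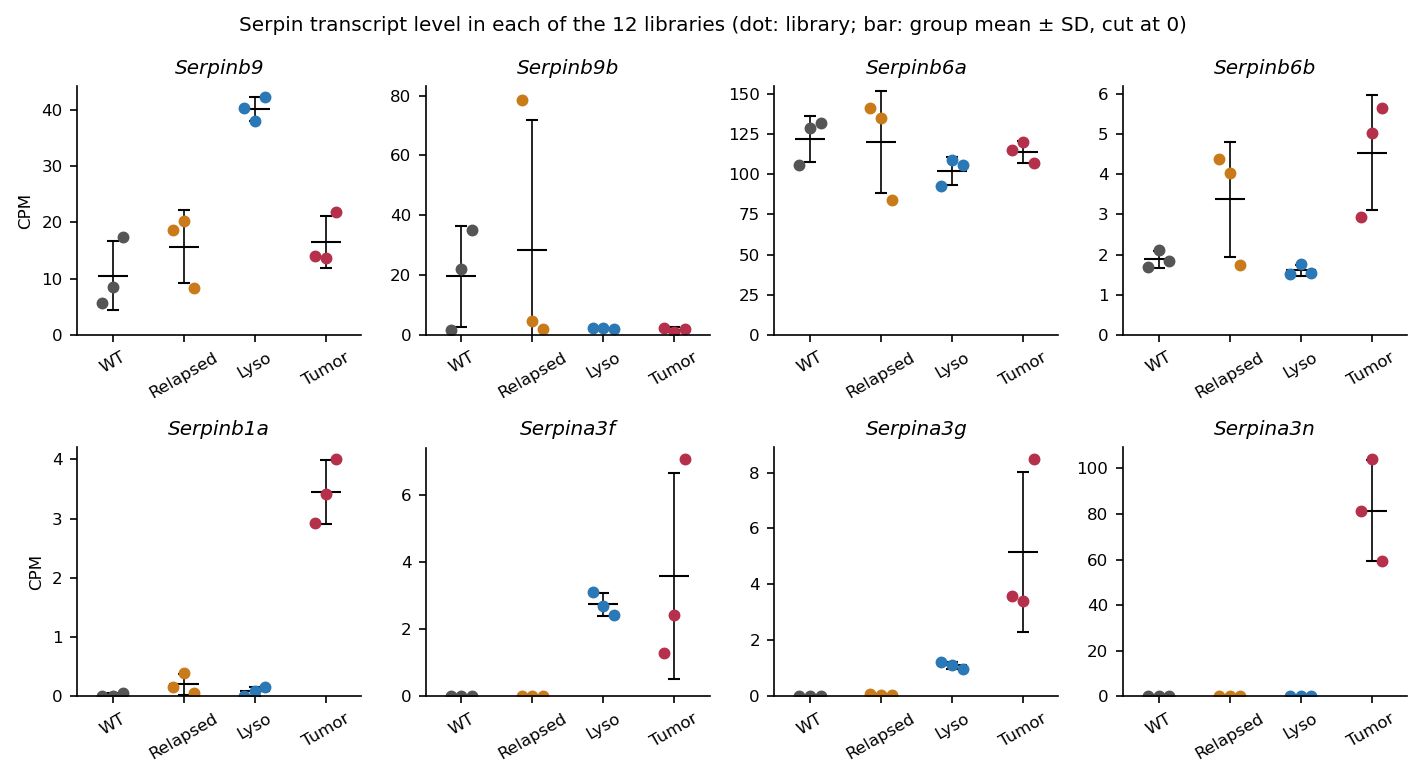
Level of each serpin in CPM (y axis, linear, a separate scale in each panel) in the 3 libraries of WT, Relapsed, Lyso and Tumor (x axis), with dots for libraries and bars for the group mean and SD, cut at 0. Serpinb9 stands highest in Lyso (38 to 42.3 CPM), Serpina3f and Serpina3g are seen in Lyso and Tumor, and Serpina3n (59.3 to 104 CPM) and Serpinb1a (2.93 to 4 CPM) in Tumor.

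Serpinb9, the granzyme B inhibitor, was highest in cells given T cell granules. Its level was 5.66, 8.44 and 17.4 CPM in WT 1, 2 and 3, and 40.4, 38 and 42.3 CPM in Lyso 1, 2 and 3. Tumor 1, 3 and 4 had 14, 13.7 and 21.9 CPM, and the relapsed lines ITF1, Rel and ITM had 18.7, 20.2 and 8.27 CPM. Every Lyso library was above every other library, whereas WT, Relapsed and Tumor overlapped. The mean rose from 10.5 ± 6.13 CPM in WT to 40.2 ± 2.14 CPM in Lyso (SD, n = 3 each), a log2 fold change of 1.74 (SE 0.37, edgeR adjusted p = 0.0182). Lyso was also higher than the relapsed lines, by 1.36 on the log2 scale (SE 0.34, edgeR adjusted p = 0.0304). Tumor was lower than Lyso by a log2 fold change of -1.28 (SE 0.36, edgeR adjusted p = 0.021), and its difference from WT was 0.46 (SE 0.39, edgeR adjusted p = 0.459). Within WT the deep library had the highest level, and against WT 3 alone the log2 fold change of Lyso was 1.20 (SE 0.42, edgeR adjusted p = 0.201), where the lone control library is assumed to vary like the other groups. Without WT 3 it was 2.49 and still called. Leaving out WT 2, Lyso 1 or Lyso 3 ended the call against WT, with values of 1.59 to 1.75 and edgeR adjusted p of at most 0.0686, and leaving out any Lyso library ended that against the relapsed lines (at most 0.103). The call of Tumor below Lyso was lost without Lyso 1, Lyso 3, Tumor 1 or Tumor 3 (at most 0.0932).

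Serpinb9b, the neighbor of Serpinb9 and an inhibitor of granzyme M, varied widely within WT and within the relapsed lines. WT 1, 2 and 3 had 1.7, 22 and 35.1 CPM, and ITF1, Rel and ITM had 78.5, 4.75 and 1.86 CPM. Lyso had 2.17, 2.33 and 1.86 CPM, and Tumor had 2.28, 1.01 and 2.12 CPM. Lyso and Tumor were thus low throughout, but WT 1 and ITM were as low, and the groups overlapped. The log2 fold change was -3.36 (SE 1.19) for Lyso and -3.64 (SE 1.40) for Tumor against WT, which did not pass (edgeR adjusted p = 0.143 and 0.0903). Against the relapsed lines it was -3.73 (SE 1.17) for Lyso and -4.02 (SE 1.37) for Tumor, which did not pass either (edgeR adjusted p = 0.0732 and 0.0578). The differences from the relapsed lines rested on ITF1, without which they were -0.63 for Lyso and -0.92 for Tumor. Without ITF1 in the fit, Serpinb9b was called lower than WT in both Lyso (edgeR adjusted p = 0.00721) and Tumor (0.00407). Lyso was also called below WT when only these 2 groups were fitted (-3.41, edgeR adjusted p = 0.0167), and with no filter on low counts (-3.38, 6.26e-07), which brought calls in all 4 of these comparisons. Tumor was also called below WT without WT 1 (edgeR adjusted p = 0.049) or ITM (0.0359), and by DESeq2 (0.0371). Against the relapsed lines, leaving out WT 1, Rel or ITM brought the calls of Lyso (edgeR adjusted p of 0.0148 to 0.0495) and of Tumor (0.0133 to 0.0413), and DESeq2 called both (0.0312 and 0.0125). Of its exonic bases, 278 (8.3%) are also exonic in Gm36099 on the opposite strand, and Gm36099 was the gene with the most similar pattern over the 12 libraries (Pearson's r = 0.961). The strand setting of the counting is not given in the sources used here, and without it reads of these genes cannot be told apart.

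Serpinb6a, the cathepsin G inhibitor, had similar levels in all groups. Its level was 106, 129 and 132 CPM in WT, 92.6, 109 and 106 CPM in Lyso, 115, 120 and 107 CPM in Tumor and 141, 135 and 83.8 CPM in ITF1, Rel and ITM. The groups overlapped, and the 6 log2 fold changes lay between -0.26 and 0.16 with standard errors of 0.17 or 0.18, none called. The counts of this gene carry a further uncertainty, since 29.3% of its exonic bases are exonic on the opposite strand in Nqo2, Ripk1 or 1110046J04Rik, and 22% of the 75-base windows of its transcripts recur in transcripts of those genes. Serpinb6b, the granzyme A inhibitor, was scarce. WT had 1.7, 2.11 and 1.83 CPM, Lyso 1.51, 1.77 and 1.54 CPM, and Tumor 2.93, 5.03 and 5.65 CPM, all Tumor libraries above those of WT and Lyso. ITF1 (4.38 CPM) and Rel (4.02 CPM) lay within the range of Tumor, and ITM (1.74 CPM) within that of WT. Tumor was higher than WT by 1.30 on the log2 scale (SE 0.42, edgeR adjusted p = 0.0481) and higher than Lyso by 1.52 (SE 0.38, edgeR adjusted p = 0.0111). The first of these stood close to the threshold, in counts of 39 over the 3 WT libraries and 58 over the 3 Tumor libraries. Of 12 fits with a library left out, 3 called it, and the edgeR adjusted p reached 0.187. It was lost without WT 1, WT 2, WT 3, Rel, any Lyso library, Tumor 3 or Tumor 4. The difference from Lyso was lost without Tumor 4 (1.34, edgeR adjusted p = 0.0524), and Lyso was called below the relapsed lines without ITM (-1.38, edgeR adjusted p = 0.0094).

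Serpinb1a, the inhibitor of neutrophil proteases, was at the floor in WT and Lyso and was detected in every tumor. Counts were 0, 0 and 1 in WT, 0, 1 and 2 in Lyso and 2, 6 and 1 in ITF1, Rel and ITM. Tumor 1, 3 and 4 had 9, 17 and 17 counts, or 2.93, 3.42 and 4 CPM, and did not overlap with any cultured library. The level in Tumor (3.45 ± 0.539 CPM, SD, n = 3) rose over WT with a ratio of 73.8 (95% counting interval 12.6 to 2981, edgeR adjusted p = 0.000371). Against Lyso the ratio was 39.3 (95% counting interval 12.6 to 198, edgeR adjusted p = 9.9e-05), and against the relapsed lines the log2 fold change was 4.01 (SE 0.53, edgeR adjusted p = 0.000167), or 4.90 without Rel. The wide intervals come with the few counts outside Tumor.

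Serpina3f, the first of the Serpina3 genes, had no counts in WT or the relapsed lines and low but regular counts in Lyso. WT and the relapsed lines had 0 counts in all 6 libraries, which allows up to 0.142 CPM over the WT libraries and 0.0672 CPM over the relapsed lines. Lyso 1, 2 and 3 had 33, 29 and 30 counts (3.11, 2.7 and 2.43 CPM), and Tumor 1, 3 and 4 had 4, 12 and 30 counts (1.3, 2.42 and 7.06 CPM). Lyso was tight and Tumor spread around it, so the groups overlapped. Lyso was at least 19.2-fold higher than WT (edgeR adjusted p = 0.0144) and at least 40.6-fold higher than the relapsed lines (0.00265). Tumor was at least 26.3-fold higher than WT (edgeR adjusted p = 0.00346) and at least 55.7-fold higher than the relapsed lines (0.0007). These bounds set the level against 3 counts over the libraries of a group, and Tumor 4 held 30 of the 46 Tumor counts. Tumor and Lyso differed by 0.42 on the log2 scale (SE 0.53, edgeR adjusted p = 0.615), a difference that turned to -0.50 without Tumor 4. The call of Lyso over WT was lost without WT 3, the library with most WT reads (edgeR adjusted p = 0.133), and also without Lyso 1 (0.052).

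Serpina3g, the intracellular cathepsin inhibitor, was present after granules and higher in tumors. It had 0 counts in each WT library and 1 count in each relapsed line. Lyso 1, 2 and 3 had 13, 12 and 12 counts (1.23, 1.12 and 0.972 CPM), and Tumor 1, 3 and 4 had 11, 17 and 36 counts (3.58, 3.42 and 8.47 CPM). The 3 ranges did not overlap, in the order cultured lines, Lyso, Tumor. Lyso was at least 7.72-fold higher than WT (edgeR adjusted p = 0.0085), and Tumor at least 36.6-fold (0.000134). Against the relapsed lines the ratio was 16.3 for Lyso (95% counting interval 5.18 to 82.9, edgeR adjusted p = 0.00393) and 77.5 for Tumor (25.4 to 386, 2.67e-05). Tumor rose above Lyso by 2.22 on the log2 scale (SE 0.40, edgeR adjusted p = 0.00241). Without WT 3 the call of Lyso over WT was lost (edgeR adjusted p = 0.145).

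Serpina3n, the secreted acute-phase serpin, rose in tumors by more CPM than any other of the 8 and was at the floor in Lyso. WT had 0, 0 and 6 counts, the relapsed lines 1 count each and Lyso 0, 1 and 2 counts. Tumor 1, 3 and 4 had 250, 515 and 252 counts, or 81.3, 104 and 59.3 CPM. All Tumor libraries stood far above every cultured library. The log2 fold change of Tumor against WT was 8.14 (SE 0.43, edgeR adjusted p = 9.32e-08). It rests on the 6 counts of WT 3, without which WT held 0 counts and the fitted value, then no measure of size, was 12.46 and still called. The ratio was 1231 against the relapsed lines (95% counting interval 420 to 5981, edgeR adjusted p = 7.81e-09) and 929 against Lyso (317 to 4513, 1.3e-08). In Lyso the 3 counts against 6 in WT gave a ratio of 0.313 (95% counting interval 0.0507 to 1.47, edgeR adjusted p = 0.401), so a rise of the gene as in Serpina3f and Serpina3g was not detectable there. The upper bound of that interval lies below the lowest bound for either neighbor, at least 7.72-fold. Without WT 3, which held all 6 counts, the direction could not be read (log2 fold change 2.84, SE 3.10).

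**Figure D2:**
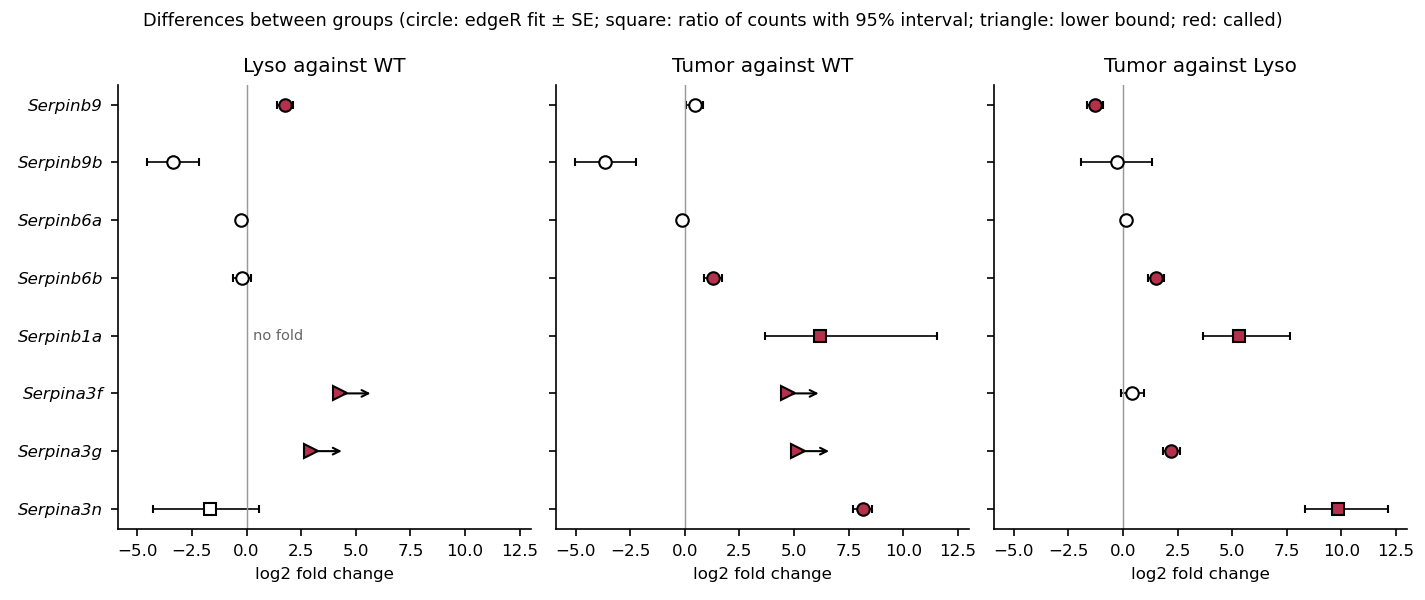
Log2 fold change of each serpin (x axis) in Lyso against WT, Tumor against WT and Tumor against Lyso, with circles for edgeR values ± SE, squares for ratios of counts with 95% counting intervals, triangles with arrows for lower bounds where WT held 0 counts, red for called genes and "no fold" where both groups held 3 counts or fewer. In Lyso against WT, Serpinb9 (1.74) and the bounds of Serpina3f and Serpina3g are red, and Serpina3n is red in Tumor against WT (8.14) and in Tumor against Lyso.

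The 3 Serpina3 neighbors did not follow each other within tumors. Tumor 4 had the most Serpina3f and Serpina3g but the least Serpina3n, and Tumor 3 had the most Serpina3n. Over the 12 libraries Serpina3f and Serpina3g correlated with Pearson's r = 0.93 on the log2 CPM scale, and Serpina3n correlated with Serpinb1a (0.97), with Serpina3g (0.81) and with Serpina3f (0.56). Serpinb9 and Serpinb9b, which lie next to each other, gave -0.08. These values describe 12 libraries in 4 groups that share depth and treatment. By the same measure the genes most like Serpinb9 included Tlr3 and Trim12a (0.968 and 0.96), those most like Serpina3f were Gbp4, Socs3 and AW112010 (0.981 to 0.979), and those most like Serpina3g were Cxcl9, Rgs1 and H2-Q7 (0.994 to 0.986). For Serpina3n they were Shc2, Sulf1 and Emilin2 (all 0.997), for Serpinb1a Rnase4, Dpep1 and Entpd1 (0.989 to 0.987), and for Serpinb6b Pygl, Egln1 and Pla2g16 (0.955 to 0.938). Serpinb6a had no gene above 0.878.

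Near-identical copies can lose reads, since reads that map to several places are not counted. Of the distinct 75-base windows in the transcripts of each gene, as long as a read, 0 recurred in another gene for Serpinb9 and Serpinb6b, 0.311% for Serpinb1a, 1.46% for Serpina3n, 3.41% for Serpinb9b, 5.33% for Serpina3f and 7.69% for Serpina3g. Windows were compared on both strands. Those of Serpinb9b recurred only in Gm36099, the gene that overlaps it on the opposite strand. The windows of Serpina3f and Serpina3g recurred in Serpina3h, Serpina3i and the pseudogene Serpina3e-ps, among others. Those of Serpina3n recurred in Serpina3e-ps and Serpina3g. Most windows of these genes were therefore their own. Levels per exonic kilobase (RPKM, the CPM divided by kilobases of exon) allow the genes to be set beside each other. In WT, Serpinb6a had 22.6 ± 2.64 RPKM, Serpinb9b 5.85 ± 5.03, Serpinb9 3.01 ± 1.76 and Serpinb6b 0.831 ± 0.0934 (SD, n = 3 each), and Serpinb9b and Serpinb9 did not differ beyond their spread. In Lyso, Serpinb9 reached 11.5 ± 0.613 RPKM beside 18.9 ± 1.6 for Serpinb6a, whereas Serpina3f had 1.2 ± 0.15 and Serpina3g 0.525 ± 0.0605. In Tumor, Serpina3n had 39.4 ± 10.7 RPKM, Serpinb6a 21.1 ± 1.23 and Serpinb9 4.73 ± 1.33. Serpina3g (2.45 ± 1.37), Serpinb6b (2.01 ± 0.631), Serpina3f (1.57 ± 1.33) and Serpinb1a (1.5 ± 0.234) overlapped in Tumor. Measured by the longest transcript in place of all exons, Serpinb6a came to 55.8 RPKM in WT and 52.1 RPKM in Tumor, above Serpina3n there, so the order of these 2 genes in Tumor depends on the length used.

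**Figure D3:**
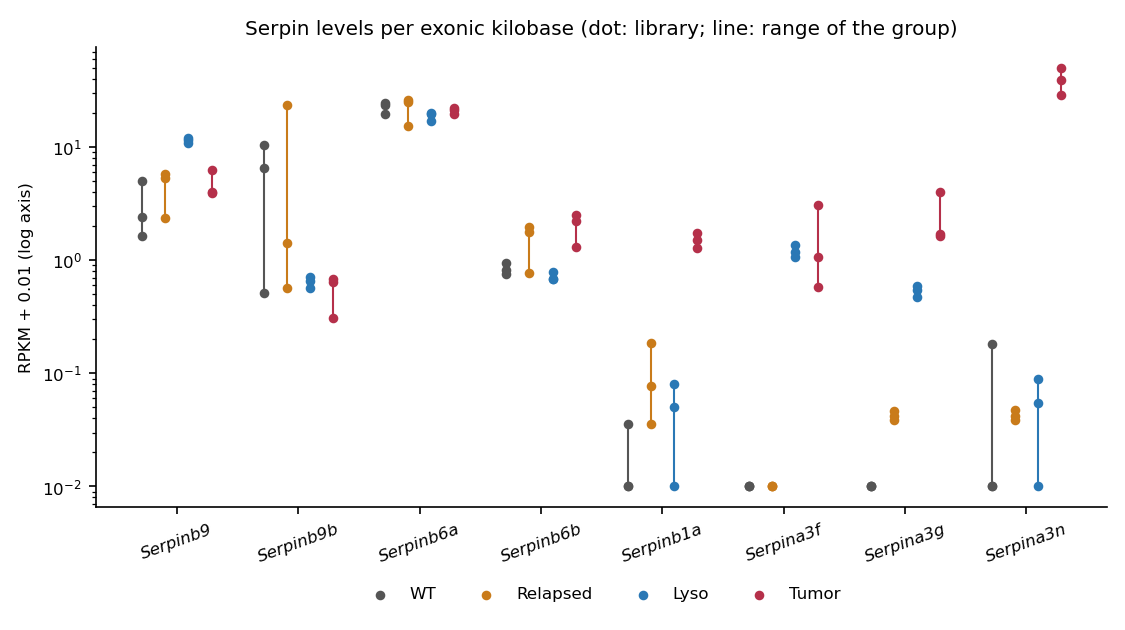
Level per exonic kilobase (y axis, RPKM + 0.01, log scale) of each serpin (x axis) in the libraries of the 4 groups, with dots for libraries and lines for the range of each group. Serpinb6a stays between 15.5 and 26.1 RPKM in all groups, and Serpina3n goes from at most 0.171 RPKM in culture to between 28.7 and 50.2 RPKM in Tumor.

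The proteases that these serpins meet were looked at from 2 lists. Of 10 granzyme and perforin genes, 2 were tested. Gzmb, which encodes granzyme B, had 0 counts in all WT and relapsed libraries and 64, 72 and 63 counts in Lyso (5.95 ± 0.806 CPM, SD, n = 3), at least 41.5-fold higher than WT (edgeR adjusted p = 0.00173). It passed the filter on low counts only through Lyso, where it is high, so its call is a description. Tumor had 1, 0 and 3 counts of Gzmb and was lower than Lyso by a log2 fold change of -4.13 (SE 0.61, edgeR adjusted p = 0.00144). Prf1, the pore-forming perforin, had 0 counts in WT, 5 in Lyso and 2 in Tumor and was not tested. Serpinb9 and Gzmb thus were both highest in Lyso. In the same Lyso libraries, 12 markers of T and NK cells summed to 10.1 to 12.6 CPM, against 1.27 to 6.79 CPM in WT and 3.82 to 10.1 CPM in Tumor. Cd8a had 22, 13 and 28 counts and Cd3e 5, 7 and 1 counts in Lyso, and both had 0 in WT. The part of T cell RNA in the values of Gzmb and of the serpins in Lyso was not tested. Of 9 other proteases that clade A3 and B serpins bind, 5 were tested. In Lyso against WT edgeR called 0, DESeq2 called 1, and 1 had an unadjusted p under 0.05. Ctsk, Ctss and Ctsh, cysteine cathepsins of the lysosome, were called higher in Tumor than in WT. Over all 5 tested proteases of this list the median log2 fold change in Tumor against WT was 1.23, beside 0.0014 for all genes. The summed level of all 9 did not rise, at 860 to 1208 CPM in WT and 871 to 975 CPM in Tumor. Ctsb, the most abundant of them, had 871 ± 278 CPM in WT and 621 ± 72.4 CPM in Tumor (SD, n = 3 each) and was not called.

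Genes of the pathway that leads from gp130, the shared receptor of the IL-6 family, to STAT3 were called higher in both Lyso and Tumor. Of 12 genes of this axis, 3 were called higher in Lyso than in WT and 5 in Tumor, with 0 lower, and their median log2 fold change was 0.29 in Lyso and 0.92 in Tumor beside -0.0048 and 0.0014 for all genes. Stat3 had 47, 52.4 and 62 CPM in WT, 554, 555 and 553 CPM in Lyso and 276, 279 and 310 CPM in Tumor. The 3 groups did not overlap. The log2 fold change of Stat3 was 3.35 in Lyso (SE 0.18, edgeR adjusted p = 2.61e-06) and 2.40 in Tumor against WT (SE 0.18, 1.72e-06). Socs3, the feedback inhibitor induced by STAT3, rose by 3.76 in Lyso (SE 0.27, edgeR adjusted p = 2.5e-05) and 3.62 in Tumor (SE 0.27, 2.05e-06). Osmr, the receptor for oncostatin M, was the third gene called in Lyso (log2 fold change 1.45, SE 0.26, edgeR adjusted p = 0.00745). Il6st, which encodes gp130 itself, and Lifr were called in Tumor. In the relapsed lines 0 of 12 were called against WT by edgeR or DESeq2, 2 had an unadjusted p under 0.05, and Stat3 was one of them (log2 fold change 0.44, SE 0.17). Transcripts of Stat3 and Socs3 were at raised levels in Lyso, where Serpina3n had 3 counts. These are levels of RNA, and a link between STAT3 and Serpina3n was not tested.

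Genes downstream of STAT3 and of the acute-phase response separated the 2 groups further. Of 13 such genes, Junb and Pim1 were called higher in Lyso than in WT, and 9 in Tumor. The median log2 fold change was 0.19 in Lyso and 2.33 in Tumor. Saa3, an acute-phase protein like Serpina3n, had 0, 0 and 3 counts in WT, 2, 3 and 0 in Lyso and 372, 673 and 202 in Tumor, with a ratio of 713 for Tumor against WT (95% counting interval 243 to 3463, edgeR adjusted p = 1.4e-06). It passed the filter on low counts only through Tumor, so its call is a description. Tumor 3 had the most of both Saa3 and Serpina3n and Tumor 4 the least. The summed level of all 13 genes ran in another order, at 1429, 1321 and 1446 CPM in Tumor 1, 3 and 4. Of 9 NF-kappaB feedback and target genes, 0 were called in Lyso against WT by edgeR or DESeq2, where 3 had an unadjusted p under 0.05. In Tumor 6 were called higher, Cxcl1, Ccl2, Icam1, Nfkbia, Tnfaip3 and Birc3. The summed level of all 9 genes, called or not, was 147 to 170 CPM in WT, 146 to 152 CPM in Lyso and 348 to 407 CPM in Tumor.

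Interferon-gamma response genes were highest in Lyso. Of 18, 14 were called higher in Lyso than in WT and 11 in Tumor, and Tumor was lower than Lyso for 12 (6 by DESeq2) and higher for 1, Cxcl9. The median log2 fold change was 4.73 in Lyso and 2.74 in Tumor. The sums were 391 to 1075 CPM in WT, 466 to 1521 CPM in the relapsed lines, 7945 to 8523 CPM in Lyso, and 1225, 1935 and 4099 CPM in Tumor 1, 3 and 4. Lyso lay above all other libraries, as it did for Serpinb9. In Tumor the order of these sums was that of Serpina3f, lowest in Tumor 1 and highest in Tumor 4. Irf1, a transcription factor induced by interferon, had a log2 fold change of 5.89 in Lyso against WT (SE 0.57, edgeR adjusted p = 0.000193) and 2.91 in Tumor (SE 0.52, 0.00198).

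**Figure D4:**
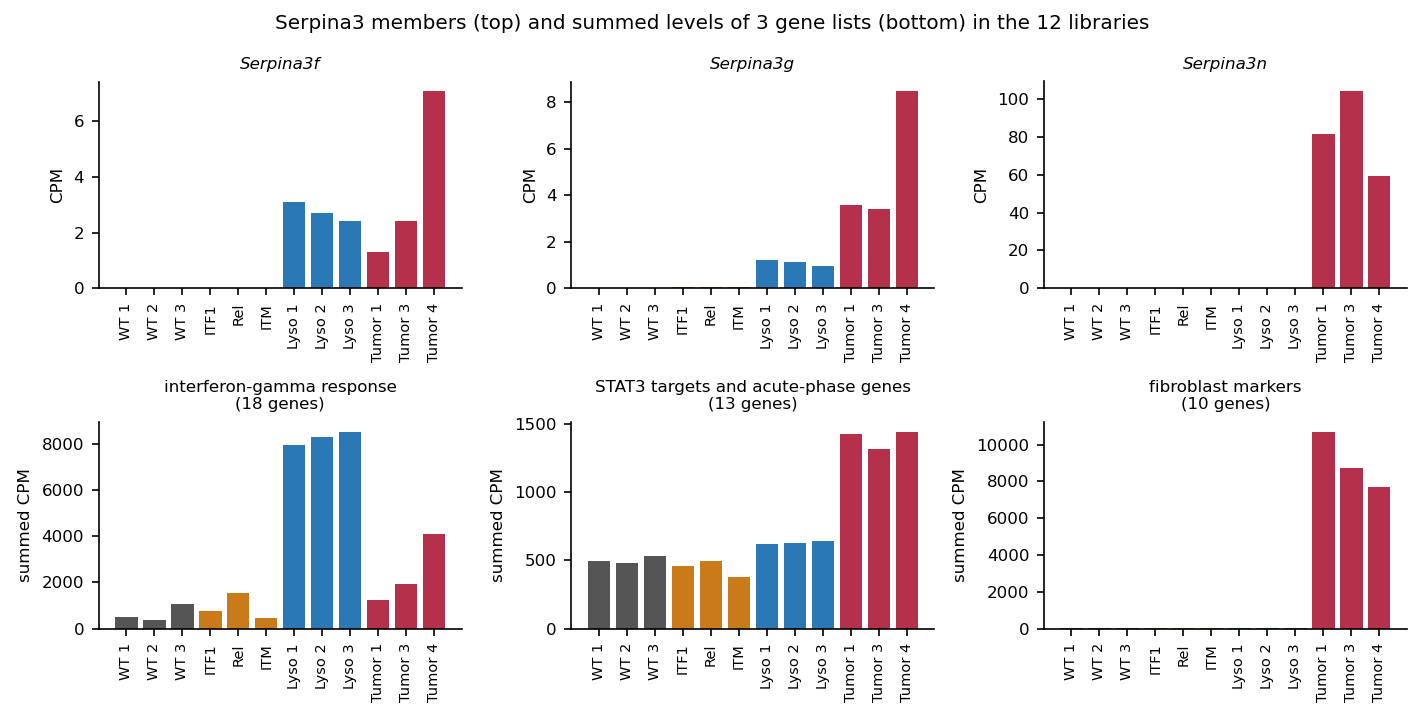
Bars from 0 for the 12 libraries (x axis, colored by group) show the level of Serpina3f, Serpina3g and Serpina3n in CPM (top) and the summed CPM of 18 interferon-gamma response genes, 13 STAT3 targets and acute-phase genes and 10 fibroblast markers (bottom). Interferon-gamma response genes stand highest in Lyso (7945 to 8523 CPM), and the fibroblast sum and Serpina3n stand up in Tumor (7707 to 10709 CPM and 59.3 to 104 CPM).

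The serpins that rose in tumors did so together with markers of other cells. Beside the 10 of 10 fibroblast markers, 5 of 7 tested myeloid markers (of 10) and 6 of 6 tested endothelial markers (of 8) were called higher in Tumor than in WT, and 0 of 2 tested markers of T and NK cells (of 12, with 1 at an unadjusted p under 0.05 and 0 by DESeq2). The myeloid sum was 50.1 to 73.4 CPM in Tumor, 35.8 to 39.5 CPM in Lyso and 15.3 to 30.6 CPM in WT, and the endothelial sum 48.3 to 53.6 CPM in Tumor, 8.11 to 8.91 CPM in Lyso and 2.96 to 10.2 CPM in WT. The defining fibroblast genes Col1a1 and Dcn reached 2224 ± 383 and 286 ± 14.3 CPM in Tumor (SD, n = 3), and Dcn had 1, 3 and 2 counts in all of WT, Relapsed and Lyso. Dcn passed the filter on low counts only through Tumor. In Lyso the fibroblast sum was 15.1 to 18 CPM, below WT, and 1 gene of that list (Thy1) was called higher and 2 lower. Thy1 had 43, 24 and 24 counts in Lyso and 0 in WT. Of the 7 tested myeloid markers, 1 (Ptprc) was called higher in Lyso than in WT, with 32, 39 and 27 counts against 0, 1 and 0. The part of T cell RNA in the Thy1 and Ptprc values of Lyso was not tested. The part of stromal RNA in the levels of Serpina3n, Serpinb1a, Serpinb6b, Serpina3f and Serpina3g in Tumor was not tested. Of the 10 melanocyte markers edgeR called 0 in Tumor and 0 in Lyso against WT, DESeq2 called 1 in each, and 4 in each had an unadjusted p under 0.05.

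Among the other 53 serpin genes, 27 had no count in any library, 17 had counts but too few to test (at most 42 in sum) and 9 were tested. In Lyso against WT, 0 of the 9 were called higher by edgeR or DESeq2, and 2 had an unadjusted p under 0.05. In Tumor against WT, 5 of the 9 were called higher (4 by DESeq2), beside 8.56% of all genes tested. Among the 5 were Serping1, Serpinf1, Serpinb2 and Serpine2. At least Serping1 and Serpinb2 passed the filter on low counts only through Tumor, where they are high, so this count is a description. Serping1, a complement inhibitor, was at 0 in WT and at 176 ± 17.1 CPM in Tumor (SD, n = 3), at least 1254-fold higher (edgeR adjusted p = 1.85e-08). Serpinb2, another clade B serpin, had 0 counts in all 9 cultured libraries and 382, 305 and 94 counts in Tumor (at least 447-fold higher than WT, edgeR adjusted p = 0.00189). Serpinf1, which encodes an anti-angiogenic factor, rose by 2.25 on the log2 scale (SE 0.40, edgeR adjusted p = 0.00171). Against Lyso, Serpinc1, which encodes antithrombin, was lower in Tumor (-1.24, SE 0.41, edgeR adjusted p = 0.0406), so that Serpinb9 and Serpinc1 were the 2 tested serpins called lower there. The relatives Serpina3c and Serpina3i had 16 and 11 counts in Tumor and 0 in all cultured libraries. They were named after their values were seen and were not tested.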

How the data were processed

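The authors trimmed reads with fastp 0.19.6, aligned them to GRCm38 with STAR 2.7.1a and deposited raw counts per gene, without normalization, in a table of 54232 gene rows and 4 rows that name no gene, which were left out. Between 36.17% and 39.36% of reads fell on genes. Strand setting and annotation release are not given in the sources used here; symbols and exons came from GENCODE M21. All 12 libraries were fitted at once with edgeR 4.0.16 (R 4.3.3; TMM, filterByExpr, quasi-likelihood test), with Benjamini-Hochberg adjustment over 14924 genes and 6 comparisons of the 4 labelled groups. An SE was derived from each fold change and its F statistic. RPKM used all exonic bases. The test was checked on simulated data. Windows and motifs were handled in Python 3.11.15 with Biopython 1.88.

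The members and lists were chosen with earlier results of these data known. All 8 members were named, beside up to 4 other serpins and 3 genes of each list called per direction and comparison, by smallest p, with Stat3, Socs3, Irf1, Gzmb and Prf1, and the 3 genes most like each member. Lists covered granzymes and perforin, other proteases, the gp130-STAT3 axis, STAT3 targets and acute-phase genes, interferon-gamma response and NF-kappaB, beside markers of melanocytes, fibroblasts, myeloid, T and NK, and endothelial cells. Some genes of the rule are not reported here, and genes named beyond it, such as further serpins, NF-kappaB genes and cell type markers, were chosen after their values were seen. Alternatives were DESeq2 1.42.0, RLE size factors, library size only, no filter, a minimum of 10 counts, the compared groups only, the replicate number as a block, glmTreat, adjusted p alone, WT 3 alone or WT 1 with WT 2 as the control, each library left out, and the longest transcript as length. Depth ran from 1667398 to 16402629 counts, so 3 counts stood for 1.8 to 0.183 CPM.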

Additional observations from a re-analysis of the deposited data

Results flagged for a closer look

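For 5 serpins the effect in Tumor differed from the effect in Lyso by the direct test of the 2 groups, which share the WT control. Serpinb9 was lower in Tumor than in Lyso by a log2 fold change of -1.28 and was lower in 3 of 3 Tumor libraries than in any Lyso library. Serpinb6b (log2 fold change 1.52), Serpina3g (2.22), Serpinb1a (ratio 39.3) and Serpina3n (ratio 929) were higher in Tumor, each in 3 of 3 libraries. Of all genes tested, 8.78% were called higher in Tumor than in Lyso and 4.14% lower. The share of all genes whose libraries did not overlap was not counted. No search for single far libraries was made, since each group holds only 3.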

How the results depend on the processing

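Over 44 fold changes of the serpins, 835 of 904 alternative values kept direction and side of the threshold, 34 lost the call, 19 gained one and 16 reversed. With glmTreat, 1 member was called in Lyso against WT (Serpina3g) and 3 in Tumor against Lyso. A minimum of 10 counts, which tests fewer genes, left 2 in Tumor against WT and 2 in Tumor against Relapsed. With 1 library left out, members called ranged from 1 to 4 in Lyso against WT (1 without WT 3 or Lyso 1), from 2 to 5 in Lyso against Relapsed (5 without ITM), from 4 to 6 in Tumor against WT, from 4 to 5 in Tumor against Relapsed and from 4 to 5 in Tumor against Lyso. Same-numbered libraries deviated from their group means with correlations of -0.008 to 0.065, so no pairing by replicate number was seen. Counting error in shallow libraries such as WT 1 and WT 2 pulls such correlations toward 0, so they cannot exclude a pairing. The replicate block kept only replicate numbers found in both compared groups. Tumor shared only replicates 1 and 3 with WT and with Lyso, so Tumor 4 and WT 2 or Lyso 2 dropped out. With this block, 2 members were called in Lyso against WT (Serpinb9 and Serpina3f), 3 in Tumor against WT and 5 in Tumor against Lyso. Serpina3f in Tumor against Lyso was then -0.47, and -0.50 without Tumor 4 and with no block. In Tumor against WT the block fit tested 12576 genes and called 771 higher and 101 lower. Those groups with all their libraries and no block gave 899 and 230 over 12301 genes, and the fit of all groups 1278 and 329. Block and dropped libraries cannot be told apart there. In Lyso against WT the block called 309 and 54, beside 419 and 117 for those groups without it, where 4 members were called. Over all genes, Relapsed against WT gave 2 higher and 4 lower, but 47 and 54 with DESeq2 and 139 and 126 with no filter. Without ITF1 it gave 40 and 42, and without ITM 78 and 34. With glmTreat, which tests against the fold limit itself, the calls were 111 higher and 10 lower in Lyso against WT (362 and 86 by the quasi-likelihood test), 161 and 11 in Lyso against Relapsed (479 and 155), 805 and 61 in Tumor against WT (1278 and 329), 825 and 50 in Tumor against Relapsed (1247 and 344) and 801 and 155 in Tumor against Lyso (1311 and 618), and 0 in Relapsed against WT. No filter gave 567 and 262 in Lyso against WT and 747 and 362 in Lyso against Relapsed. The adjusted p alone gave 522 and 181, and 727 and 420, for these, 1808 and 1035 in Tumor against WT, 1765 and 1155 in Tumor against Relapsed and 2121 and 1570 in Tumor against Lyso. WT 3 as the only control gave 173 and 88 in Lyso and 3 and 16 in Relapsed, which had 0 with the compared groups alone, and in these fits the lone control library is assumed to vary like the other groups.

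The reversed values belong to differences that did not pass. Leaving out 1 library, the log2 fold change of Serpina3n ranged from -2.25 to 2.84 in Lyso and from -2.04 to 2.49 in Relapsed against WT. Against WT, Relapsed gave -2.72 to 1.15 for Serpinb9b and -0.16 to 0.17 for Serpinb6a. Tumor against Relapsed gave -0.23 to 0.30 for Serpinb9 and -0.28 to 0.053 for Serpinb6a, and Tumor against Lyso gave -0.47 to 0.049 for Serpinb9b and -0.50 to 0.76 for Serpina3f. Against WT 3 alone, Relapsed gave -0.15 for Serpinb9 and -0.32 for Serpinb9b. The cause of these changes was not tested.

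Counts limit the low genes. Most reads of WT come from WT 3, so the lower bounds for Serpina3f and Serpina3g rest on it, while 3 counts stand for 1.8 CPM in WT 1 and 1.28 CPM in WT 2. With 3 libraries against 3, a permutation test of 1 gene cannot go below 0.1.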

Other observations

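Serpins outside the main account also varied. Serpinh1, the collagen chaperone of the endoplasmic reticulum, was abundant throughout, at 992 ± 135 CPM in WT, 841 ± 122 CPM in the relapsed lines, 629 ± 22.6 CPM in Lyso and 1048 ± 180 CPM in Tumor (SD, n = 3 each). Serpinb8, a further intracellular clade B serpin, had 0.566, 18.2 and 12.5 CPM in WT, 15.7, 18.6 and 22.8 CPM in Lyso and 9.43, 6.64 and 8.24 CPM in Tumor. All 3 Tumor libraries lay below all 3 Lyso libraries for Serpinb8, as for Serpinb9. Neither gene was called in any of the 6 comparisons, but Serpinh1 missed the fold limit only, being lower in Lyso than in WT (log2 fold change -0.66, SE 0.16, edgeR adjusted p = 0.0385) and higher in Tumor than in Lyso (0.74, SE 0.16, 0.00548). Serpinb8 in Tumor against Lyso gave -1.25 (SE 0.56, edgeR adjusted p = 0.127). Both genes were named after their values were seen.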
